A study of Mus musculus with 6 samples.

Results

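Hyaluronan synthesis, breakdown and binding were examined in cancer-associated fibroblasts (CAFs) through 9 genes, taken by symbol from a table of 27179 genes. They comprise the synthases Has1, Has2 and Has3, the breakdown genes Hyal1, Hyal2 and Cemip, and the binding genes Cd44, Vcan and Tnfaip6. All 9 had enough counts to be tested, among 14855 tested genes. The cells came from 3 mammary tumors of raGFP-Wnt1 mice, whose ages are not given in the sources used here. These mice carry a heterozygous Pdgfra H2B-GFP knock-in (C57BL/6), which labels the nuclei of Pdgfra-expressing cells, and an MMTV-Wnt1 transgene (FVB/NJ), so both groups share both alleles. The MMTV promoter drives Wnt1 in the mammary epithelium, and the reporter selects for Pdgfra-expressing cells, so fibroblasts without Pdgfra were not sampled. GFP+ cells of each tumor were sorted by surface CD34 into a CD34 negative and a CD34 positive fraction, which gave 6 libraries, 3 per group, with both fractions of a pair from the same tumor. The comparison asked how the hyaluronan genes differed between the fractions.

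Hyaluronan is a long, unbranched sugar chain of the extracellular matrix. Its synthases sit in the plasma membrane, join UDP-glucuronic acid and UDP-N-acetylglucosamine in alternation, and push the growing chain out of the cell. Hyaluronidases and CEMIP-dependent uptake break it down, and proteins such as CD44, versican and TSG-6 (the product of Tnfaip6) anchor, space or modify it. In the stroma of mammary tumors, fibroblasts are a main source of this polymer.

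Library totals ranged from 16238059 to 86609267 counts. The CD34 negative library of tumor 3 stood apart from the other 5: it had counts for 14314 genes, against 16253 to 19220 in the others, and 161 genes that averaged 2 CPM or more elsewhere had none in it. CPM are counts scaled to a common library size of 1000000. Transcripts of the sorted marker, Cd34, averaged 74.3 ± 30.2 CPM over the CD34 negative libraries and 948 ± 571 CPM over the CD34 positive ones (SD, n = 3 each). Summed CPM of 6 fibroblast markers ranged from 40192 to 58610 in CD34 negative and from 39887 to 42502 in CD34 positive libraries, and none of the 6 was at 0. Col1a1 and Col1a2 made up most of each sum. Of the 6, 3 had an estimated difference above 0 (Pdgfrb, Col1a1 and Col1a2). Mean CPM in CD34 negative and CD34 positive libraries was 688 and 368 for Pdgfrb, 385 and 428 for Pdgfra, 2921 and 6362 for Dcn, and 1363 and 2344 for Lum. Pericyte markers (6 of 6 tested, 4 with an estimated difference above 0, that is higher in CD34 negative CAFs, none at 0) summed to 211 to 236 CPM in the CD34 negative and 86.8 to 188 CPM in the CD34 positive libraries. Endothelial markers (5 of 5 tested, Cdh5 at 0 in the CD34 positive library of tumor 3) summed to 11.4 to 32.3 CPM against 56.7 to 123 CPM. Of the 5, 3 had an estimate above 0, and Tek, at 5.44 to 13.4 CPM against 48.8 to 116 CPM, made up most of the CD34 positive sums. Markers of cycling cells (4 of 4 tested, Cdk1 at 0 in the CD34 negative library of tumor 3) summed to 11.2 to 54.3 CPM against 38.9 to 255 CPM, and 0 of the 4 had an estimate above 0. Epithelial markers (6 of 6 tested, none at 0) summed to 48.3 to 149 CPM against 12.8 to 130 CPM. All 6 had an estimate above 0, and their sum was higher in the CD34 negative fraction of each tumor. Macrophage markers (4 of 6 tested, 1 with an estimate above 0) summed to 3.13 to 9.98 CPM against 4.21 to 10.1 CPM, with Cd68, Fcgr1 and Cd163 at 0 in at least 1 library. Leukocyte and lymphocyte markers (3 of 5 tested, 1 with an estimate above 0) summed to 1.89 to 3.17 CPM against 2.66 to 6.52 CPM, with Ptprc, S100a8 and S100a9 at 0 in at least 1 library. The part of these cell types in the differences below was not tested, and in bulk libraries fewer cells of a type and less RNA per cell cannot be told apart.

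The genes covered a wide span of expression. Levels of different genes were compared as RPKM, the CPM divided by the gene length in kilobases, averaged over all 6 libraries. Tnfaip6 was the highest, at 743 RPKM, above 99.6% of tested genes, and Has1 followed at 459 RPKM, above 99.1%. Cd44 was at 72.3 RPKM, Vcan at 55.5, Has2 at 24.8 and Cemip at 15.8. Hyal2 and Hyal1 were low, at 3.31 and 2.26 RPKM, and Has3 was close to the limit of detection at 0.073 RPKM. For 3 pairs of neighbours in this order, every library of the higher gene lay above every library of the lower: Has1 over Cd44, Cemip over Hyal2, and Hyal1 over Has3. The ranges over libraries overlapped for the other 5 pairs. Within a library, Tnfaip6 exceeded Has1 and Vcan exceeded Has2 in 6 of 6, whereas the order of Cd44 and Vcan, of Has2 and Cemip, and of Hyal2 and Hyal1 held in 5 of 6 each.

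**Figure D1:**
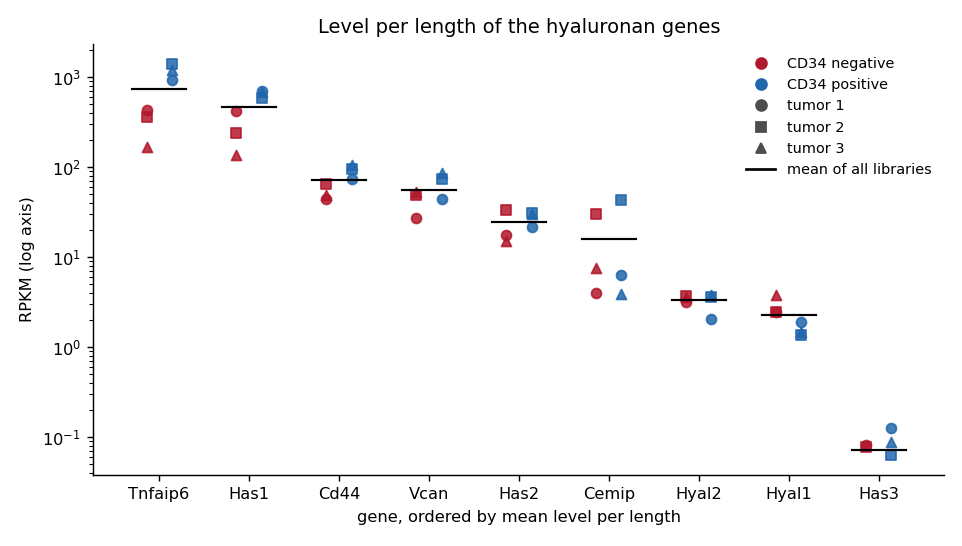
Level per length (RPKM, log axis) of the 9 hyaluronan genes in each library, ordered by the mean of all 6 libraries (black line), with CD34 negative libraries in red, CD34 positive libraries in blue and the tumor shown by the symbol. Tnfaip6 and Has1 averaged 743 and 459 RPKM and Has3 0.073 RPKM; the Has3 value of 0 in the CD34 negative library of tumor 3 has no place on a log axis and is not drawn.

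Differences are given as log2 fold changes, CD34 negative minus CD34 positive, from limma-voom with Benjamini-Hochberg adjustment over all tested genes. The study's methods name no term for the tumor. In the fit without one, 0 of the 9 genes had an adjusted p under 0.05, against 0.121% of all tested genes. At an unadjusted p under 0.05 there were 4, against 14.3% of all tested genes. The study also removed genes without annotation, and in a fit to genes with a symbol alone 0 of the 9 passed as well. Of the other tools without the tumor term, edgeR called 0 of the 9, against 0.0606% of all tested genes, and 3 at an unadjusted p under 0.05 (12.5%). DESeq2 called 3 (Cd44, Has1 and Tnfaip6), all lower in CD34 negative CAFs, against 4.7% of all tested genes and 2.59% in that direction. With the tumor as a block, so that each fraction was compared with its partner from the same tumor, 4 genes passed, and all 4 were lower in CD34 negative CAFs: Has1, Cd44, Vcan and Tnfaip6. In that fit 8.57% of all tested genes passed, 4.25% lower and 4.32% higher. The median difference of the 9 genes was -0.63 without the block, against -0.028 for all tested genes, with 7 estimates below 0 and 2 above. Together the 9 genes took 0.178% to 0.254% of the counts of the CD34 negative libraries and 0.412% to 0.557% of those of the CD34 positive libraries.

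**Figure D2:**
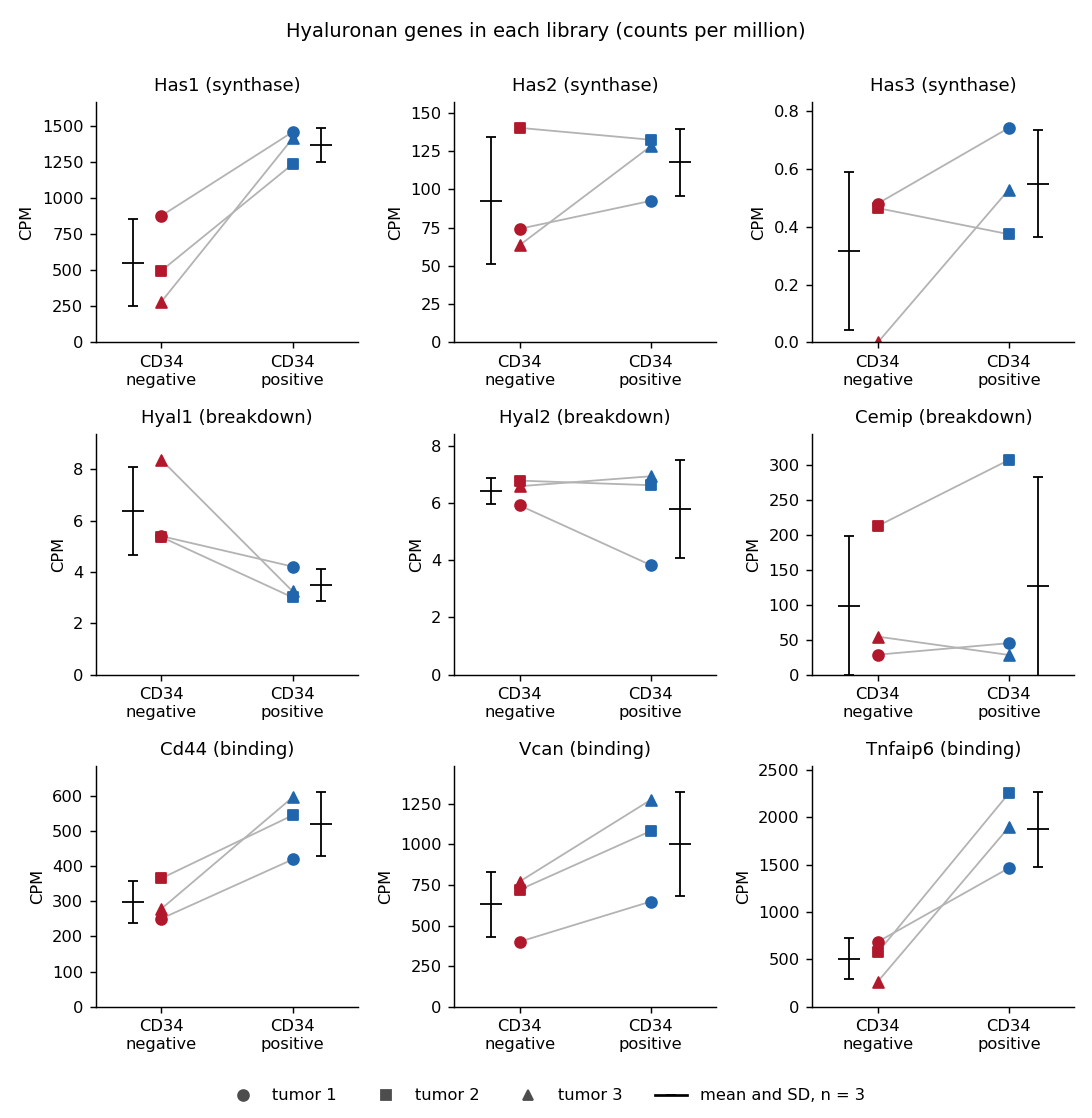
CPM of each hyaluronan gene (linear axes from 0) in the CD34 negative (red) and CD34 positive (blue) libraries, with grey lines joining the fractions of a tumor and black bars for the mean and SD of 3 libraries (for Cemip the bars reach below 0 and are clipped there). For Has1, Cd44 and Tnfaip6 the 3 CD34 negative libraries sit below the 3 CD34 positive libraries, for Hyal1 above them, and Cemip is highest in both libraries of tumor 2.

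The promoter bases of the 4 genes that passed with the block are shown because these genes moved in the same direction. They are the bases before the annotated start in the RefSeq table of GRCm38.p6, which held an entry for 7 of the 9 genes, but not for Has2 and Has3. Bases that GENCODE M21 places in an exon were left out next to the start. They are written 5′ to 3′ on the strand of the gene, with matches to searched motifs in capitals. The windows are chr17:17855206-17855438 (minus strand) for Has1, chr2:52037863-52038008 (plus strand) for Tnfaip6, chr2:102901666-102901915 (minus strand) for Cd44 and chr13:89742513-89742762 (minus strand) for Vcan. The Has1, Cd44 and Vcan windows precede starts that lie inside the full RefSeq extent of these genes. For Cd44 this is by a few bases, whereas the Has1 and Vcan windows lie wholly inside that extent, not upstream of the whole gene.
Has1: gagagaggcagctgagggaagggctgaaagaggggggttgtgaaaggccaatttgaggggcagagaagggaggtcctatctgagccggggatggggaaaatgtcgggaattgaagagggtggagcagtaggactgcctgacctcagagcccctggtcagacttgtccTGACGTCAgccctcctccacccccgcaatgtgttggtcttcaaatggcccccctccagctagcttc
Tnfaip6: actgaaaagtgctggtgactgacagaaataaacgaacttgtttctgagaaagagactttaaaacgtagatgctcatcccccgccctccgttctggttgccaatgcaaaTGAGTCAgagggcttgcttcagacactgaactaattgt
Cd44: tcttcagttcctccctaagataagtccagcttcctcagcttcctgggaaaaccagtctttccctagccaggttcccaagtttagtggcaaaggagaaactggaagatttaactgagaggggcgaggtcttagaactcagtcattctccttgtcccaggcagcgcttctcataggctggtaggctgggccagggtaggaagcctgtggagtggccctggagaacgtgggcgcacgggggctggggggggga
Vcan: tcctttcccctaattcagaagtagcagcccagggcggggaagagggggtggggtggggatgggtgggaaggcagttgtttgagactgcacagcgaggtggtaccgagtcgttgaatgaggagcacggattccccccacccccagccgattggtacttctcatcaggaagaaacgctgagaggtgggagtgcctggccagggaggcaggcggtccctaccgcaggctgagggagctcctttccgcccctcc

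On both strands of the 250 bases before the start, 7 motifs were searched: AP-1 (TGANTCA), CRE (TGACGTCA), C/EBP (TTGCNNAA), TATA box (TATAAA), TEAD (GGAATG) and, by name, the CArG box and NF-kB. The set was chosen after the promoters had been seen. Has1 held a CRE match 83 bases before its start, a motif present in 1.55% of 32851 windows of the same length. Tnfaip6 held an AP-1 match 142 bases before its start (6.75% of windows) and a TEAD match 8 bases before it (12.6%), the latter outside the stretch printed. The Cd44 and Vcan windows held no match, so the searched letters were not shared by the 4 genes. Cemip had a TATA box 29 bases before its start (12.4% of windows), and Hyal2 an NF-kB match (3.9%) that overlapped a TEAD match. A match describes letters in the window and is not evidence of binding.

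Among the synthases, Has1 carried most of the transcripts, and with the tumor block it was lower in CD34 negative CAFs. Has1 (gene 15116, chromosome 17, 17833691 to 17855589) measured 878, 498 and 283 CPM in the CD34 negative libraries of tumors 1, 2 and 3, and 1458, 1236 and 1414 CPM in the CD34 positive libraries. The highest CD34 negative value lay below the lowest CD34 positive value, and the CD34 negative values were spread more widely (553 ± 301 against 1369 ± 118 CPM, SD, n = 3). The log2 difference was -1.48 ± 0.38 (SE) without the block, with a limma-voom adjusted p of 0.143. With the block it was -1.46 ± 0.25, with an adjusted p of 0.00800. Within tumors 1, 2 and 3 it was -0.73, -1.31 and -2.32, so the sign was the same in 3 of 3. Without tumor 3, the block gave -1.03 with a limma-voom adjusted p of 0.00200. With the block and a tumor left out, little of the error is estimated from the gene itself. Such p values lean on the spread of other genes and are not a measure of stability. edgeR with the block placed Has1 just above the threshold, at an adjusted p of 0.0520. Spaca6, which overlaps Has1, had 1449 counts against 251408.

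Has2, the synthase that embryos need for heart development, showed overlapping groups. It measured 74.2, 140 and 63.5 CPM in the CD34 negative and 92.5, 132 and 128 CPM in the CD34 positive libraries of tumors 1, 2 and 3. The CD34 negative library of tumor 2 was the highest of all 6. Has2 differed by -0.42 ± 0.31 on the log2 scale, with a 95% interval from -1.12 to 0.28 and a limma-voom adjusted p of 0.572 (0.269 with the block). Without the CD34 negative library of tumor 3 the Has2 difference was -0.17, without tumor 3 as a whole -0.11, and without the CD34 negative library of tumor 2 -0.77, and none of these passed. Has3 was barely detected, with 27, 21 and 0 counts in the CD34 negative and 12, 32 and 15 counts in the CD34 positive libraries. These counts equal 0.480, 0.465 and 0 CPM against 0.742, 0.374 and 0.529 CPM, and the 0 allows up to 0.0825 CPM (3 counts, counting error only). The groups overlapped, and the interval of the Has3 difference, from -4.81 to 1.92, left its direction unresolved at this depth. Without the CD34 negative library of tumor 3, the Has3 difference was 0.046. Chtf8, on the opposite strand, shares 4.79% of the 50-base words of Has3.

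Per length, Has1 made up 96.0%, 87.8% and 90.0% of the summed synthase RPKM in the CD34 negative libraries of tumors 1, 2 and 3, and 97.0%, 95.0% and 95.7% in the CD34 positive libraries. The summed synthase level was 437, 271 and 150 RPKM in the CD34 negative and 719, 622 and 706 RPKM in the CD34 positive libraries. These sums did not overlap between the groups. The ratio of Has1 to Has2 RPKM was 24.0, 7.20 and 9.04 in CD34 negative and 32.0, 18.9 and 22.4 in CD34 positive libraries, and was lower in the CD34 negative fraction of each tumor. Across tumors, the ranges of this ratio overlapped between the groups.

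None of the breakdown genes passed either fit, and Hyal1 was the only 1 of the 3 whose groups did not overlap. Hyal1 (gene 15586, chromosome 9, 107576950 to 107581699), a lysosomal hyaluronidase, measured 5.39, 5.36 and 8.36 CPM in the CD34 negative and 4.21, 3.01 and 3.24 CPM in the CD34 positive libraries of tumors 1, 2 and 3. All CD34 negative values lay above all CD34 positive values. Hyal1 differed by 0.92 ± 0.37 on the log2 scale, with a limma-voom adjusted p of 0.313 (0.190 with the block). Within tumors 1, 2 and 3 the difference was 0.35, 0.83 and 1.36. Hyal1 shares 49.7% of its 50-base words with other genes, mostly with Naa80, which overlaps it and had 2599 counts against 1266, so reads of these genes may not have been told apart.

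Hyal2, a hyaluronidase anchored at the cell surface, measured 5.93, 6.79 and 6.60 CPM in the CD34 negative and 3.84, 6.63 and 6.95 CPM in the CD34 positive libraries. The CD34 positive library of tumor 1, the least deeply sequenced, was the lowest, and the groups overlapped. Hyal2 differed by 0.038 ± 0.31 on the log2 scale, with a 95% interval from -0.68 to 0.75 and a limma-voom adjusted p of 0.969.

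Cemip, a hyaluronan-binding protein required for depolymerization in fibroblasts, was highest in tumor 2 in both fractions. It measured 28.5, 212 and 54.3 CPM in the CD34 negative and 44.9, 307 and 28.0 CPM in the CD34 positive libraries of tumors 1, 2 and 3. The groups overlapped. The geometric means of the pairs were 35.8, 255 and 39.0 CPM, and the highest library exceeded the lowest 10.9-fold. On the log2 scale, Cemip differed by -0.16 ± 0.96 without the block and -0.13 ± 0.27 with it, with limma-voom adjusted p values of 0.958 and 0.834. Within tumors 1, 2 and 3 the difference was -0.66, -0.53 and 0.95. Without tumor 3, the block gave -0.59 with a limma-voom adjusted p of 0.0222, and the sign without the block reversed on leaving out the CD34 negative library of tumor 1 or 3, the CD34 positive library of tumor 2, or tumor 1 or 2.

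With the block, the 3 binding genes were all lower in CD34 negative CAFs, and each had the same sign in 3 of 3 tumors. Tnfaip6 (gene 21930, chromosome 2, 52038113 to 52056681), which encodes TSG-6, the secreted protein that transfers heavy chains of inter-alpha-inhibitor onto hyaluronan, showed the largest size of log2 difference among the 9 genes in both fits. It measured 685, 573 and 265 CPM in the CD34 negative and 1465, 2254 and 1897 CPM in the CD34 positive libraries of tumors 1, 2 and 3. The groups did not overlap, and their means were 508 ± 217 and 1872 ± 395 CPM (SD, n = 3). The log2 difference was -1.96 ± 0.37 without the block, with a limma-voom adjusted p of 0.0781, and -1.97 ± 0.26 with the block, with an adjusted p of 0.00290. Within tumors it was -1.10, -1.98 and -2.84. Leaving out tumor 1 brought the fit without the block to -2.40 with a limma-voom adjusted p of 0.0306.

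Cd44 (gene 12505, chromosome 2, 102811141 to 102901669), the main cell-surface receptor for hyaluronan, measured 251, 365 and 279 CPM in the CD34 negative and 419, 544 and 595 CPM in the CD34 positive libraries. The groups did not overlap, with means of 298 ± 59.8 and 519 ± 90.9 CPM. On the log2 scale, Cd44 differed by -0.79 ± 0.22 with a limma-voom adjusted p of 0.169, and -0.81 ± 0.14 with an adjusted p of 0.00853 with the block. Within tumors 1, 2 and 3 the difference was -0.74, -0.58 and -1.10.

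Vcan (gene 13003, chromosome 13, 89655309 to 89743027) encodes versican, a large chondroitin sulfate proteoglycan that binds hyaluronan through its amino-terminal domain. It measured 400, 720 and 771 CPM in the CD34 negative and 648, 1082 and 1274 CPM in the CD34 positive libraries of tumors 1, 2 and 3. The groups overlapped, since both libraries of tumor 1 were the lowest of their group, but the within-tumor differences were close to each other at -0.69, -0.59 and -0.72. The log2 difference was -0.63 ± 0.34 without the block, with a limma-voom adjusted p of 0.437, and -0.67 ± 0.12 with it, with an adjusted p of 0.0106. Without the block, leaving out the CD34 negative library of tumor 1 gave -0.36 and leaving out the CD34 positive library of tumor 1 gave -0.95, and neither passed. edgeR with the block placed Vcan just above the threshold, at an adjusted p of 0.0520. Counts per gene do not separate the splice forms of Cd44 and Vcan.

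**Figure D3:**
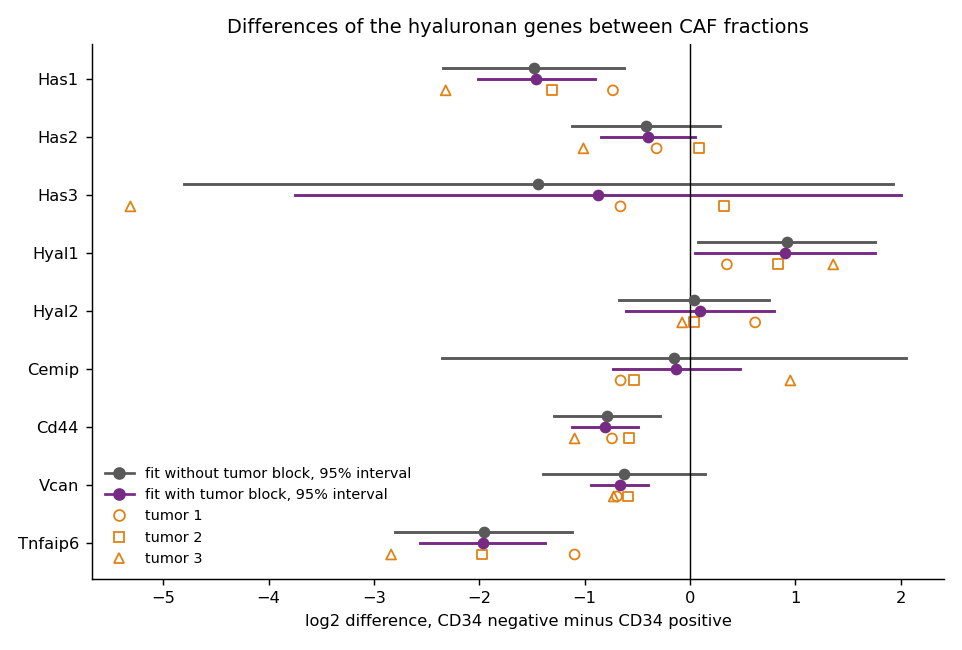
Log2 differences (CD34 negative minus CD34 positive) of the 9 hyaluronan genes, as the estimate and 95% interval of the fit without (grey) and with (purple) the tumor block, and as the difference within each tumor (open orange symbols). The intervals of Has1, Cd44 and Tnfaip6 lay below 0 in both fits, that of Vcan with the block only, and that of Hyal1 lay above 0 in both. With the block the intervals of all genes but Hyal1 narrowed, that of Hyal2 only slightly, and that of Cemip spanned 0 in both fits.

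Of the 9 genes, 4 had groups that did not overlap (3 below and 1 above), against 20.5% of all tested genes, and 5 had the same sign in 3 of 3 tumors (55.6%, against 46.3%). Within tumors, the size of the difference was greatest in tumor 3 for Has1, Has2, Has3, Hyal1, Cemip, Cd44, Vcan and Tnfaip6 and in tumor 1 for Hyal2. The CD34 negative library of tumor 3 is the 1 that stood apart, and its part in these sizes was not tested. With the block and without that tumor, Has1 (-1.03), Cd44 (-0.67), Vcan (-0.66) and Tnfaip6 (-1.54) kept their sign. They passed in limma-voom, as did Cemip, against 13% of all tested genes, with the limit of such fits given for Has1. Patterns over the libraries were compared by the root mean square (RMS) difference of centred log2 CPM, where a smaller value means more alike. The closest pairs among the 9 genes were Cd44 and Vcan (0.28), Has2 and Cd44 (0.30), and Has1 and Tnfaip6 (0.39).

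The 2 tested genes most like each member over the 6 libraries were found by the same measure. For Has1 they were Lysmd2 (RMS 0.23) and Fam13c (0.23), and for Tnfaip6 they were Adm (0.17) and Gm13232 (0.22). For Cd44 they were Cdc25a (0.07) and Serpinb6a (0.08), and for Vcan they were Rtp4 (0.09) and Atp10a (0.10). Has2 was closest to Pon3 (0.08) and C1galt1c1 (0.10), Hyal1 to Apbb3 (0.08) and Angpt1 (0.09), and Hyal2 to Qpctl (0.03) and Rspry1 (0.07). Cemip was closest to Slpi (0.35) and C430002N11Rik (0.49). The measure grows with a gene's own spread, so its values are not comparable between members. The SD of log2 CPM over the libraries was 1.49 for Cemip, 0.953 for Has1 and 0.323 for Hyal2. Has3 was closest to Soat2 (0.14) and E130307A14Rik (0.19).

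Of 39 other genes of hyaluronan metabolism, 30 could be tested. Their median log2 difference was -0.61, with 19 estimates below 0 and 11 above. Without the block 0 passed in limma-voom (11 at an unadjusted p under 0.05), and with it 11 of the 30 passed, 9 lower and 2 higher in CD34 negative CAFs, against 8.57% of all tested genes. By role, the count of genes that passed was highest in precursor supply, with 4 of 7, all 4 lower. Of the other 3 precursor genes, the estimates of Pgm3 and Gfpt2 were below 0 and that of Gfpt1 was above 0.

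Precursor supply makes the nucleotide sugars that the synthases consume. Ugdh, which oxidizes UDP-glucose to UDP-glucuronic acid, averaged 214 ± 63.0 CPM in the CD34 negative libraries and 636 ± 92.6 CPM in the CD34 positive ones (log2 difference with the block -1.61 ± 0.21, limma-voom adjusted p 0.00279). Ugp2, which makes UDP-glucose, was at 87.2 ± 14.1 and 242 ± 100.3 CPM (-1.41 ± 0.20, limma-voom adjusted p 0.00360). Uap1, which makes UDP-N-acetylglucosamine, was at 174 ± 52.3 and 519 ± 145 CPM (-1.57 ± 0.14, limma-voom adjusted p 0.000451). The groups did not overlap for any of these 3 genes. Among the 30 tested genes of this list, 10 had groups that did not overlap, against 20.5% of all tested genes. Gnpnat1, the acetyltransferase upstream of Uap1, differed by -1.07 (limma-voom adjusted p 0.0443 with the block). Gfpt2, a glutamine-dependent entry enzyme and the highest of this group per length at 260 RPKM, differed by -0.64 and missed the threshold with the block (limma-voom adjusted p 0.0682). Gfpt1, the other listed enzyme of that step, was at 20.3 RPKM and differed by 0.061 with the block (limma-voom adjusted p 0.844).

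Of the 7 listed partners in heavy chain transfer, 4 could be tested. All 4 estimates were below 0, as were 7774 of the 14855 tested genes. With the block 2 of the 4 passed, both lower, against 4.25% of all tested genes in that direction. The intervals of the other 2 spanned 0 with the block, from -2.12 to 0.37 for Itih2 and from -3.07 to 2.26 for Itih4. Itih4 had 3 to 37 counts per library and differed by -0.36, -1.06 and 0.33 within tumors 1, 2 and 3. The untested Itih1, Itih3 and Ambp had at most 12 counts in any library. Ptx3, which encodes a pentraxin that binds TSG-6 and the heavy chains and had the highest level per length in this role (636 RPKM), averaged 466 ± 226 CPM in the CD34 negative libraries and 1980 ± 665 CPM in the CD34 positive ones. Its groups did not overlap, and the log2 difference with the block was -2.17 ± 0.27 (limma-voom adjusted p 0.00222). Itih5, an inter-alpha-inhibitor heavy chain, was at 387 ± 231 and 1002 ± 360 CPM, without overlap (-1.47 ± 0.15, limma-voom adjusted p 0.00103).

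With the block, 3 of 6 proteases that cleave versican passed, 2 lower and 1 higher in CD34 negative CAFs. In this fit 8.57% of all tested genes passed, 4.25% lower and 4.32% higher. The same shares apply to the role counts that follow. Adamts5 (-1.07, limma-voom adjusted p 0.0170) and Adamts1 (-0.60, limma-voom adjusted p 0.0427), the highest of this role at 226 RPKM, were lower. Adamts4 was higher (0.68, limma-voom adjusted p 0.0201). Of 5 tested genes for other breakdown steps, 1 passed: Hexa, a lysosomal hexosaminidase subunit and the highest of this role at 131 RPKM, was higher in CD34 negative CAFs (0.56, limma-voom adjusted p 0.0266). Cemip2 was also higher, without overlap of the groups, but missed the threshold (0.77, limma-voom adjusted p 0.0603). Of 5 other receptors, 1 passed: Hmmr, a receptor also known as a mitotic spindle protein, was lower (-1.94, limma-voom adjusted p 0.0133), beside the cycling markers given above, whose part in it was not tested. Layn, the receptor with the highest level per length (21.2 RPKM), differed by 0.067 with the block (limma-voom adjusted p 0.861). None of 3 other hyalectans and link proteins passed, and the highest of them, Hapln3, reached 1.02 RPKM. On leaving out a tumor with the block, Ugdh, Ugp2, Uap1, Gnpnat1, Ptx3, Itih5 and Adamts5 passed each time, against 7.61%, 5.82% and 13% of all tested genes without tumors 1, 2 and 3. These fits have the limit given for Has1. Without tumor 2, Hexa was at 0.57 (limma-voom adjusted p 0.155), Hmmr at -1.83 (0.453) and Adamts1 at -0.53 (0.237), and none of these passed. Adamts1 also missed the threshold without tumor 3 (-0.49, limma-voom adjusted p 0.0655), as did Adamts4 without tumor 1 (0.52, limma-voom adjusted p 0.0718). With edgeR and the block, 5 of the 11 genes passed, against 3.87% of all tested genes: Ugdh, Ugp2, Uap1, Ptx3 and Itih5.

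**Figure D4:**
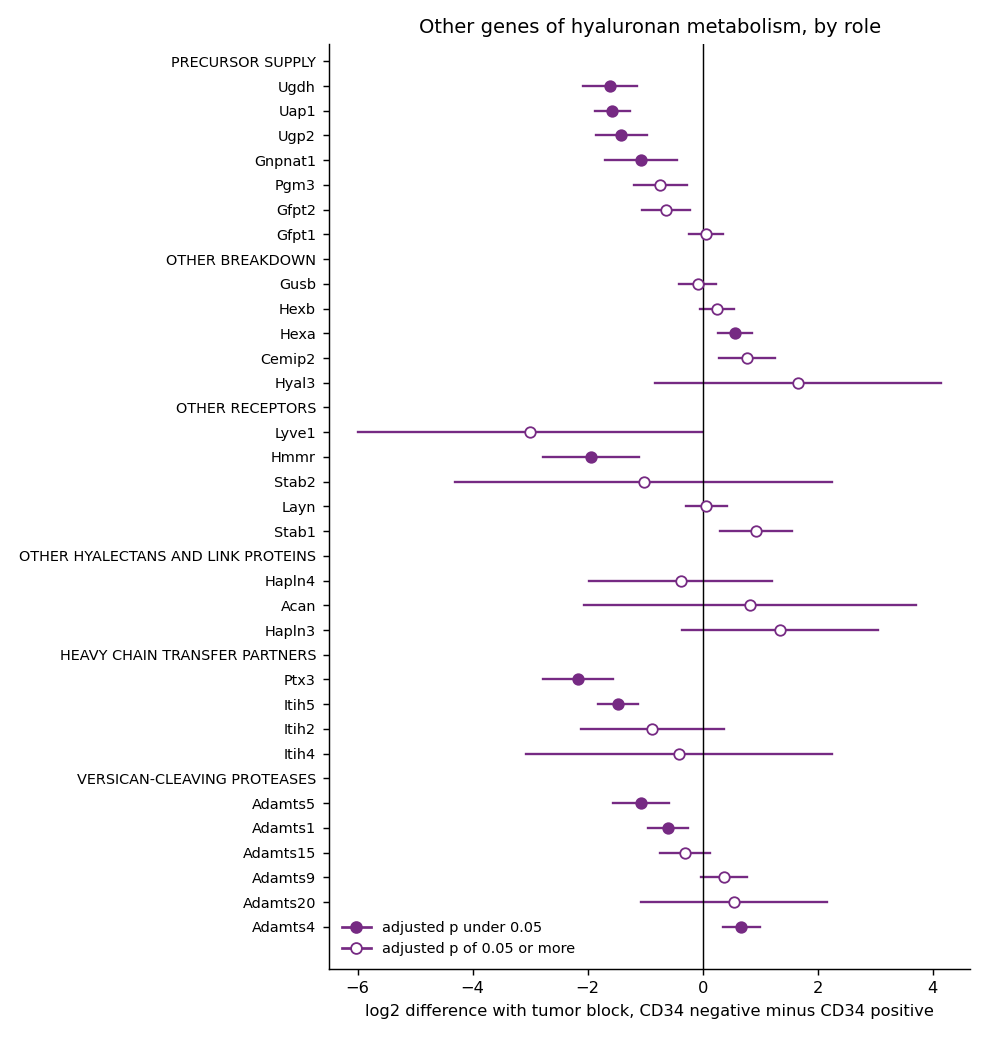
Log2 differences (CD34 negative minus CD34 positive) with the tumor block and 95% intervals for the 30 tested other genes of hyaluronan metabolism, grouped by role, with filled points for an adjusted p under 0.05. Ugdh, Uap1, Ugp2, Gnpnat1, Ptx3, Itih5, Hmmr, Adamts5 and Adamts1 sit below 0 as filled points, and Hexa and Adamts4 above 0.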

How the data were processed

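Poly(A) RNA of 6 sorted CAF libraries from 3 tumors was sequenced, with groups and tumor numbers taken from the sample titles. The authors aligned reads to GRCm38/mm10 and counted them per gene with featureCounts of Rsubread. The deposited values are raw counts. Strand use and the handling of reads with several matches are not given in the sources used here. Gene length came with the deposited counts, and gene positions are those of RefSeq GRCm38.p6.

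Genes were filtered with filterByExpr (minimum count 10), scaled by TMM and compared with limma-voom, two-sided, with Benjamini-Hochberg adjustment and a threshold of 0.05, in R 4.3.3 with edgeR 4.0.16, limma 3.58.1 and DESeq2 1.42.0. CPM are scaled by library total and TMM factor, RPKM divide CPM by the deposited gene length, and differences within a tumor use voom log2 CPM (offset 0.5). The study's methods name no tumor term, so the tumor block is listed as an alternative, although it matches the paired design. Without the block 3 genes were called higher and 15 lower in CD34 negative CAFs. The paper reports many more genes higher, so the fit without the block cannot be taken as the study's own result. They also removed genes without annotation, whereas genes without a symbol were kept here, and a fit to the 14563 tested genes with a symbol is an alternative (17 called, against 18 of 14855). The labels place both fractions of a pair in the same tumor, so the tumor number pairs the libraries. After subtraction of the group means, paired libraries correlated across genes at 0.373, 0.350 and 0.219 within tumors 1, 2 and 3. Labels do not say whether the tumors came from different mice, so p values speak for these tumors alone. Without the block they measure the spread between the libraries of a group. With the block they measure the spread of the differences within tumors. The limma-voom, edgeR and DESeq2 fits, each with and without the block, were tested on simulated counts.

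The members and gene lists were chosen with earlier results of these data known. Named were the 9 members, Cd34 and the 2 genes most like each member. Other pathway genes were named if they passed in either limma-voom fit or had the highest level per length of their role. Pgm3, Gfpt1, Cemip2 and the remaining heavy chain transfer partners were named as well. Alternatives covered scaling, filter, annotation, test, block, depth, abundant genes, libraries and tumors. Confidence intervals are at 95%. Protein sequences were not used here.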

Additional observations from a re-analysis of the deposited data

How the results depend on the processing

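Of 260 alternative values of the 9 differences, 213 kept their direction and their side of the threshold, 36 kept their direction and newly passed, and 11 changed sign. With the replicate block, 4 members, 11 other hyaluronan genes and 1273 of all genes passed in limma-voom, against 0, 0 and 18 without it. edgeR with the block gave 2, 5 and 575, DESeq2 with the block 4, 14 and 1733, and the block on counts thinned to the smallest library 4, 9 and 1063. The tumor as a random effect gave 3, 5 and 703. Without the tumor term, DESeq2 gave 3, 6 and 698, sample quality weights 1, 1 and 161, library totals alone 32 of all genes, and edgeR 9 of all genes.

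Leaving out a library or a tumor without the block gave 0 to 2 members, 0 to 3 other hyaluronan genes and 0 to 86 of all genes. The 2 members were Has1 and Tnfaip6, both without tumor 1. With the replicate block and tumor 1, 2 or 3 left out, 4, 4 and 5 members, 14, 10 and 11 other hyaluronan genes and 1134, 851 and 2019 of all genes passed. The count for all genes was 1273 with every tumor in. With a tumor left out, the p values lean on the spread of other genes. The fifth member was Cemip, without tumor 3.

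Sign changes concerned 3 genes, none of which passed in the fit to all libraries. Cemip was at 0.58 with sample quality weights and at 0.22 with the block without tumor 2. Without the block, leaving out libraries or tumors gave -0.99 to 1.01 for Cemip, with values above 0 in 5 fits. It gave -0.075 to 0.18 for Hyal2, below 0 without the CD34 negative library of tumor 2 (-0.0090) or the CD34 positive library of tumor 1. For Has3 it gave -2.59 to 0.073, above 0 without the CD34 negative library of tumor 3 (0.046) or tumor 3 as a whole, and Has3 could not be tested at a minimum count of 50. The cause of these shifts was not tested. At these depths Has3 had 0 to 32 counts per library.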
